A study of Homo sapiens with 8 samples.

Results

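Genes that carry the insulin signal from the receptor through PI3K and AKT to mTOR were examined in RNA-seq of OVCAR3 cells, a human ovarian cancer cell line. The set was a list of 45 genes chosen by name for their place in the pathway, and 44 of them were matched to a row among 19330 genes. IGF1R was not analysed here, because no row could be matched to it by transcript name. The libraries came from 4 groups of 2, sequenced after rRNA depletion from the input lysates of ribosome profiling experiments. For siControl and siTARG1, cells were transfected for 48 h with 30 nM of a control siRNA or of an siRNA against TARG1, the ADP-ribose hydrolase encoded by OARD1. For RACK1-WT and RACK1-Mut, 1 µg/ml doxycycline (Dox) was given for 48 h to cells transduced with lentiviral vectors and selected with drugs. In both of these lines Dox induced an shRNA against endogenous RACK1, a protein of the small ribosomal subunit, together with HA-tagged wild-type RACK1 or RACK1 with its 3 ADP-ribosylation sites mutated. The sources used here do not say which of the 2 TARG1 siRNAs listed in the study's methods was sequenced. Per the study's methods, sequencing experiments were repeated with independent biological samples.

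Insulin and insulin-like growth factors bind receptor tyrosine kinases, which phosphorylate docking proteins such as IRS1 and IRS2. These recruit PI3K, a lipid kinase made of a catalytic and a regulatory subunit, and its product brings AKT and PDPK1 to the membrane. AKT phosphorylates FOXO factors, GSK3 and TSC2. Inhibition of the TSC complex frees the GTPase RHEB to activate mTOR complex 1, which in turn phosphorylates the S6 kinases and the 4E-BP repressors of cap-dependent translation. The pathway is often activated in ovarian cancer, and AKT is among the products whose translation the study examined.

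Levels are given as CPM, exon counts scaled to a common TMM-normalized library size, and compare a gene between libraries. Libraries held 30989049 to 42668783 exon counts, and the 44 genes had 300 to 36529 counts in any library, so that all 44 passed the filter on low counts. Their median level was 6.01 on the log2 CPM scale, against 4.77 for all 13932 features tested. OARD1 was at 48.5 and 52.0 CPM in the siControl libraries and at 3.10 and 3.97 in the siTARG1 libraries. RACK1 exons, to which both the endogenous and the introduced transcript contribute, were at 1763 and 1897 CPM with RACK1-WT and at 1399 and 1454 with RACK1-Mut, against 4623 and 4515 CPM in siControl cells. All 6 epithelial and ovarian carcinoma markers were detected. They summed to 3640 to 3803 CPM in siControl, 2289 to 2436 in siTARG1 and 3134 to 3251 in the RACK1 libraries. KRT8, KRT18 and MUC16 were lower and CDH1 higher in siTARG1 than in siControl cells. In RACK1-WT against siControl, 5 of 6 markers passed the test given below, 2 higher and 3 lower, against 63.6% of all features. Mean CPM in siControl and RACK1-WT cells was 453 and 177 for MUC16, 298 and 436 for PAX8, and 105 and 179 for CDH1. MUC16 varied between replicates, at 492 and 413 CPM in siControl and 224 and 129 CPM in RACK1-WT libraries. The part of these markers in the pathway changes was not tested. The 4 markers of leukocytes, endothelium and fibroblasts with a row summed to between 5.31 and 8.74 CPM. The share of alignments on exons was 38.4% to 47.6% in the siRNA libraries and 51.4% to 56.2% in the RACK1 libraries. Among the 44 genes the replicates of a group differed by a median of 0.08 to 0.11 on the log2 scale. In bulk RNA, fewer cells that express a gene and less RNA per cell cannot be told apart.

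With TARG1 knocked down, the RNA of EIF4EBP1, DEPTOR and PIK3R3 fell more than 2-fold, AKT2 fell while AKT1 rose, and the transcripts of the receptor INSR, of IRS1 and IRS2 and of MTOR itself did not differ detectably. Of the 44 genes, 26 (59.1%) passed an adjusted p of 0.05, 16 of them higher and 10 lower in siTARG1 than in siControl cells. By the same rule 46.9% of all features tested passed, 23.7% higher and 23.2% lower. The 3 genes that fell over 2-fold compare with 8.02% of all features past that fold in either direction. The median log2 fold change was 0.10 for the 44 genes and 0.01 for all features, and the median size of the change was 0.26 and 0.28. All p-values are from edgeR's quasi-likelihood fit of the 8 libraries, with Benjamini-Hochberg adjustment over all features. Changes are on the log2 scale, and SE is the standard error from that fit.

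At the top of the pathway, INSR (ENSG00000171105, chromosome 19 of GRCh37, 7112266 to 7294425, minus strand), which encodes the insulin receptor, was at 26.5 and 25.5 CPM in siControl and 27.7 and 29.3 CPM in siTARG1 libraries. The siTARG1 libraries were slightly higher, and the log2 fold change of 0.14 (SE 0.09, 95% interval -0.06 to 0.33) did not pass. IRS1 was at 29.1 and 27.7 CPM with siControl and 25.9 and 24 CPM with siTARG1, a log2 fold change of -0.19 (SE 0.11, adjusted p = 0.17). IRS2 was at 26.2 and 28.6 CPM against 26.1 and 26.8 CPM, and these groups overlapped.

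Because INSR and IRS2 were also the receptor and the docking protein with higher levels in the RACK1 lines than in siControl cells, the RefSeq sequence of the 250 bases before each gene's start is shown, from build GRCh38.p14, 5′ to 3′ on the gene's strand. Capitals mark the GC box, GGGCGG or its reverse complement CCGCCC, a short motif of promoters without a TATA box, and neighbouring matches can share a base. The INSR window is chr19:7294415-7294664 (minus strand) and the IRS2 window chr13:109786584-109786833 (minus strand).
INSR: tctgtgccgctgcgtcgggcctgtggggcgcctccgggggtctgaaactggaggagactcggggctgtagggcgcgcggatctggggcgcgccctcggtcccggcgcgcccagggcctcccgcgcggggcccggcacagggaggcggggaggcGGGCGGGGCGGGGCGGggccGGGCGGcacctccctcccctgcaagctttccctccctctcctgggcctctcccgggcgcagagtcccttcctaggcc
IRS2: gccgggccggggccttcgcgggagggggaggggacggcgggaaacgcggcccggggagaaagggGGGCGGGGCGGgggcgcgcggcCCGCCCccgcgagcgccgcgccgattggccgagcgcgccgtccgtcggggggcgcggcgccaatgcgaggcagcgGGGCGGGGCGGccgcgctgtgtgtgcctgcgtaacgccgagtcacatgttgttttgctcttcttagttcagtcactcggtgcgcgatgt

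The INSR window was 78.4% G and C with 4 GC boxes, and the IRS2 window 76.4% with 5. On either strand, CCAAT matched 2 times in the IRS2 window and 0 times in that of INSR, and neither window held TATAAA or the FOXO motif TGTTTAC. Of 35116 promoter windows of this length, 42.6% held a GC box, 32% CCAAT, 10.7% TATAAA and 2.98% TGTTTAC. Of the 64 such windows that belong to the listed genes, 43 held a GC box, 23 CCAAT, 3 TATAAA and 1 TGTTTAC. These letters describe the windows only, and binding was not measured.

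Among the 10 adaptors and docking proteins, 3 rose, 3 fell and 4 did not pass. Of all features, 23.7% rose and 23.2% fell. CBL, an E3 ubiquitin ligase and adaptor of activated receptors, had 25.1 and 22.2 CPM in siControl cells and 44.9 and 41.1 CPM in siTARG1 cells. Both siTARG1 libraries lay well above both siControl libraries, a log2 fold change of 0.86 (SE 0.12, adjusted p = 4.8e-05). SH2B1, an adaptor that enhances receptor kinase activity, rose by 0.43, and SOS1, the exchange factor that links GRB2 to RAS, by 0.23. GAB1, a docking protein, fell by 0.60, and SHC1, which couples receptors to RAS, fell by 0.28. GRB10, an inhibitor of the insulin receptor, fell by 0.34, from 49.5 and 40.4 CPM to 36.9 and 34.1 CPM. Without siControl replicate 1 its log2 fold change was -0.18 with an adjusted p of 0.21. Values for GRB2 (0.11), SOS2 (-0.01), IRS1 and IRS2 did not pass.

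The PI3K subunits moved in both directions. PIK3CD (ENSG00000171608, chromosome 1 of GRCh37, 9689947 to 9789172, plus strand), the catalytic subunit p110 delta known from leukocytes, was at 18.7 and 17.5 CPM in siControl libraries and 40.7 and 31.6 CPM in siTARG1 libraries. Its siTARG1 libraries were the replicate pair that differed most among the 44 genes in that group, yet both lay above the controls, with a log2 fold change of 1.00 (SE 0.11, adjusted p = 6e-06). PTPRC, a marker that every leukocyte carries, was at 0.0753 and 0.196 CPM in siControl and 0.071 and 0.215 CPM in siTARG1 libraries. In RACK1-WT libraries PTPRC was at 0.795 and 0.797 CPM, and in RACK1-Mut libraries at 0.469 and 0.534 CPM. Any part of leukocyte RNA in the PIK3CD levels was not tested. PIK3CA, the p110 alpha subunit often mutated in cancer, rose by 0.33, and PIK3CB, p110 beta, was at 0.15 and did not pass. PIK3R3 (ENSG00000117461, chromosome 1 of GRCh37, 46505812 to 46598708, minus strand), the regulatory subunit p55 gamma, fell from 106 and 106 CPM to 46.9 and 47.3 CPM. The replicates of each group were nearly equal, and the log2 fold change was -1.17 (SE 0.07, adjusted p = 1.1e-08). The regulatory subunit PIK3R1 was at -0.08 and did not pass. PIK3R2 rose by 0.52, but its row joins 2 other genes including IFI30, and over coding-sequence counts its change was 0.26. The row of PIK3R3 joins a read-through transcript as well.

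Of the 5 phosphatases, PHLPP2, which dephosphorylates AKT, was at 19.6 and 17.9 CPM in siControl cells and 29.8 and 31.1 CPM in siTARG1 cells. Both siTARG1 libraries were higher, with a log2 fold change of 0.70 (SE 0.10, adjusted p = 4.2e-05). PTPN11, the SHP2 tyrosine phosphatase that relays receptor signals, rose by 0.50. PTPN1, which dephosphorylates the insulin receptor, fell by 0.19 with an adjusted p of 0.047, and DESeq2 gave 0.062. PHLPP1 (0.19) and the lipid phosphatase INPPL1 (-0.03) did not pass.

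The AKT kinases changed in opposite directions. In RACK1-WT against siControl cells, given below, both were lower, AKT2 at -0.64 and AKT1 at -0.22. AKT2 (ENSG00000105221, chromosome 19 of GRCh37, 40736224 to 40791443, minus strand), the isoform most tied to glucose uptake, was at 916 and 898 CPM in the siControl libraries and at 613 and 562 CPM in the siTARG1 libraries. All siTARG1 values were below all siControl values, a log2 fold change of -0.63 (SE 0.07, 95% interval -0.77 to -0.48, adjusted p = 4.7e-06). AKT1 (ENSG00000142208, chromosome 14 of GRCh37, 105235686 to 105262088, minus strand) was at 200 and 194 CPM with siControl and at 255 and 239 CPM with siTARG1. The AKT1 libraries did not overlap either, and the log2 fold change was 0.33 (SE 0.07, 95% interval 0.18 to 0.47). Per kilobase of coding sequence, AKT2 stood 4.21 and 4.41 times above AKT1 in the siControl libraries and 2.15 and 2.28 times above it in the siTARG1 libraries, so AKT2 stayed the more abundant isoform. PDPK1, which phosphorylates AKT in its activation loop, was at 0.04 and did not pass, and its reads may be shared with a near-identical copy, PDPK2P.

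In the mTOR complexes, DEPTOR, a protein that binds and inhibits mTOR, was at 23.9 and 24.1 CPM in siControl cells and at 7.55 and 7.18 CPM in siTARG1 cells. The groups were far apart against a replicate difference of less than 1 CPM, and DEPTOR was 3.25-fold lower (log2 fold change -1.70, SE 0.09, adjusted p = 7.6e-09). MTOR, the kinase itself, was at 124 and 118 CPM against 127 and 121 CPM, which overlap. RICTOR, the defining subunit of mTOR complex 2, rose by 0.22, and AKT1S1 (PRAS40), an inhibitory subunit of complex 1, rose by 0.26. In a fit of the 4 libraries compared alone neither was called, with adjusted p-values of 0.059 and 0.055. AKT1S1 also lost its call over coding-sequence counts, with 0.09 and an adjusted p of 0.55. RPTOR (0.10) and MLST8 (-0.17, adjusted p = 0.068) did not pass.

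In the TSC-RHEB arm RHEB passed and 3 genes did not, where 46.9% of all features passed. RHEB, the GTPase that activates mTOR complex 1, was at 113 and 126 CPM in siControl libraries and at 175 and 199 CPM in siTARG1 libraries. The 2 groups did not overlap, and the log2 fold change was 0.65 (SE 0.08, adjusted p = 2.1e-05). TSC1 (-0.17, adjusted p = 0.087), TSC2 (0.15, adjusted p = 0.10) and the kinase STK11 (0.02) did not pass. With a replicate block within each experiment, TSC1 (adjusted p = 0.024) and TSC2 (adjusted p = 0.027) did.

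Among the 9 substrates of AKT and mTOR, 4 rose and 3 fell, against 23.7% and 23.2% of all features. EIF4EBP1, which encodes 4E-BP1, was at 239 and 214 CPM in the siControl libraries and at 66.7 and 64.6 CPM in the siTARG1 libraries. It was 3.45-fold lower (log2 fold change -1.79, SE 0.07, adjusted p = 8.1e-10), and had the largest change of the 44 genes. Its paralog EIF4EBP2 had 92.8 and 98.7 CPM against 111 and 118 CPM, a rise of 0.25. Of the EIF4EBP2 counts in the coding sequence and 3′ untranslated region together, 90.8% to 94.7% lay in the latter. Over coding-sequence counts the change of EIF4EBP2 was 0.16 with an adjusted p of 0.31. Per coding kilobase, EIF4EBP1 was 12 and 9.82 times as high as EIF4EBP2 in siControl libraries and 2.73 and 2.78 times as high in siTARG1 libraries. The S6 kinases also parted, with RPS6KB1 higher by 0.68 and RPS6KB2 lower by 0.29. Of the FOXO factors, which AKT keeps out of the nucleus, FOXO4 rose by 0.89 and FOXO1 fell by 0.47. FOXO3 was at 0.00, with reads that a near-identical copy, FOXO3B, may share. GSK3A rose by 0.29, while GSK3B was at 0.10 and did not pass.

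**Figure D1:**
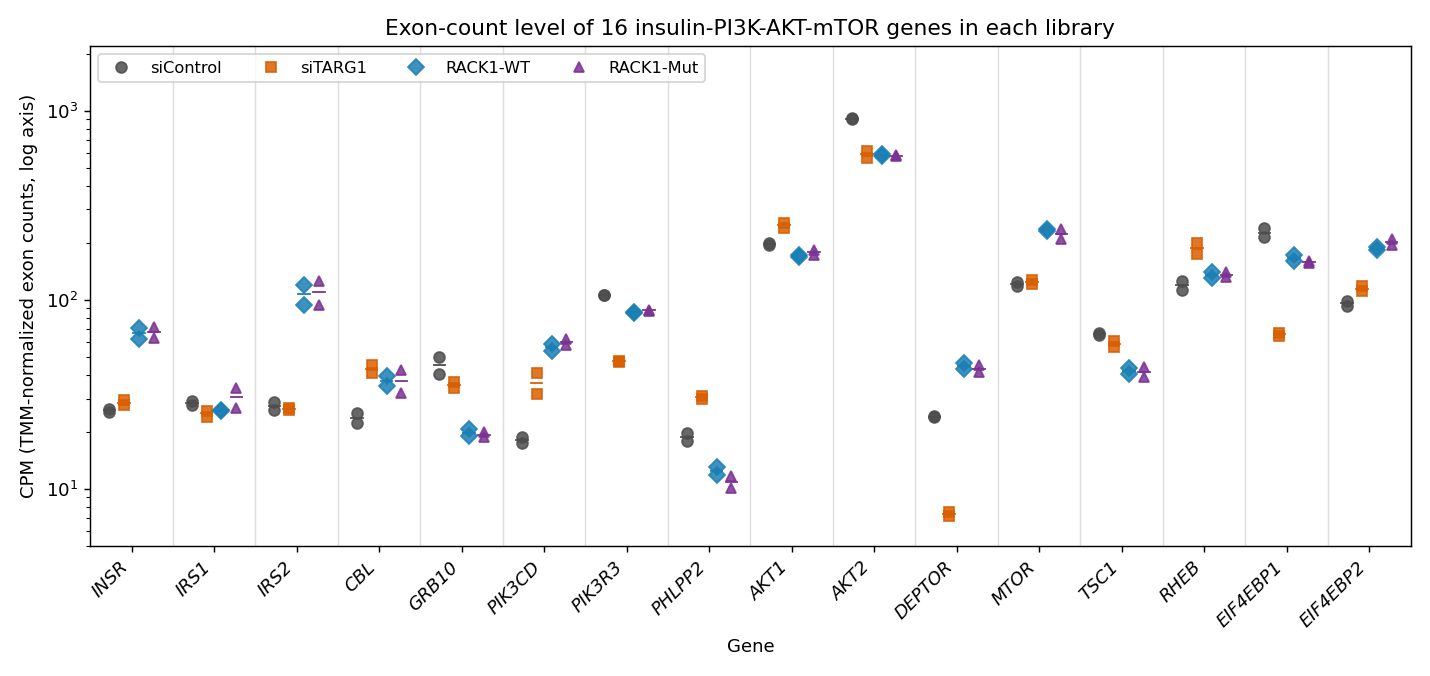
TMM-normalized CPM (log axis) of 16 pathway genes in each library, with 1 symbol per library, shape and color by group, and a dash at the mean of the 2 libraries. EIF4EBP1 and DEPTOR are lowest in the siTARG1 libraries (66.7 and 64.6 CPM, and 7.55 and 7.18 CPM), while INSR and IRS2 are high in the RACK1-WT and RACK1-Mut libraries alike.

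In the RACK1 lines, edgeR's test called 0 of the 44 genes between the mutant and the wild-type form. By this rule 0.00718% of all features passed, which is 1 of 13932. DESeq2 also called 0 of the 44. With edgeR, 688 of the 13932 features had an unadjusted p under 0.05, and so did 3 of the 44. These were IRS1, PIK3R1 and FOXO3, each with an adjusted p of 1.0. IRS1 was at 25.7 and 26.0 CPM with RACK1-WT and at 26.8 and 34.1 CPM with RACK1-Mut, a log2 fold change of 0.24 (SE 0.11) that came mainly from the second RACK1-Mut library. PIK3R1, the regulatory subunit p85 alpha, was at 74.1 and 74.8 CPM against 64.5 and 68.2 CPM, a change of -0.17. FOXO3 was at 141 and 147 CPM against 153 and 165 CPM, a change of 0.14.

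The log2 fold changes of the 44 genes in RACK1-Mut against RACK1-WT cells lay between -0.19 and 0.24, with a median size of 0.04 against 0.07 for all features. The genes that changed most in siTARG1 cells had narrow intervals here. EIF4EBP1 was at -0.08 (95% interval -0.23 to 0.08) and DEPTOR at -0.05 (95% interval -0.22 to 0.13). AKT2 was at 587 and 575 CPM in RACK1-WT libraries and 578 and 580 CPM in RACK1-Mut libraries, with an interval of -0.15 to 0.14. AKT1, at 168 and 171 CPM against 184 and 173 CPM, had an interval of -0.07 to 0.22.

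**Figure D2:**
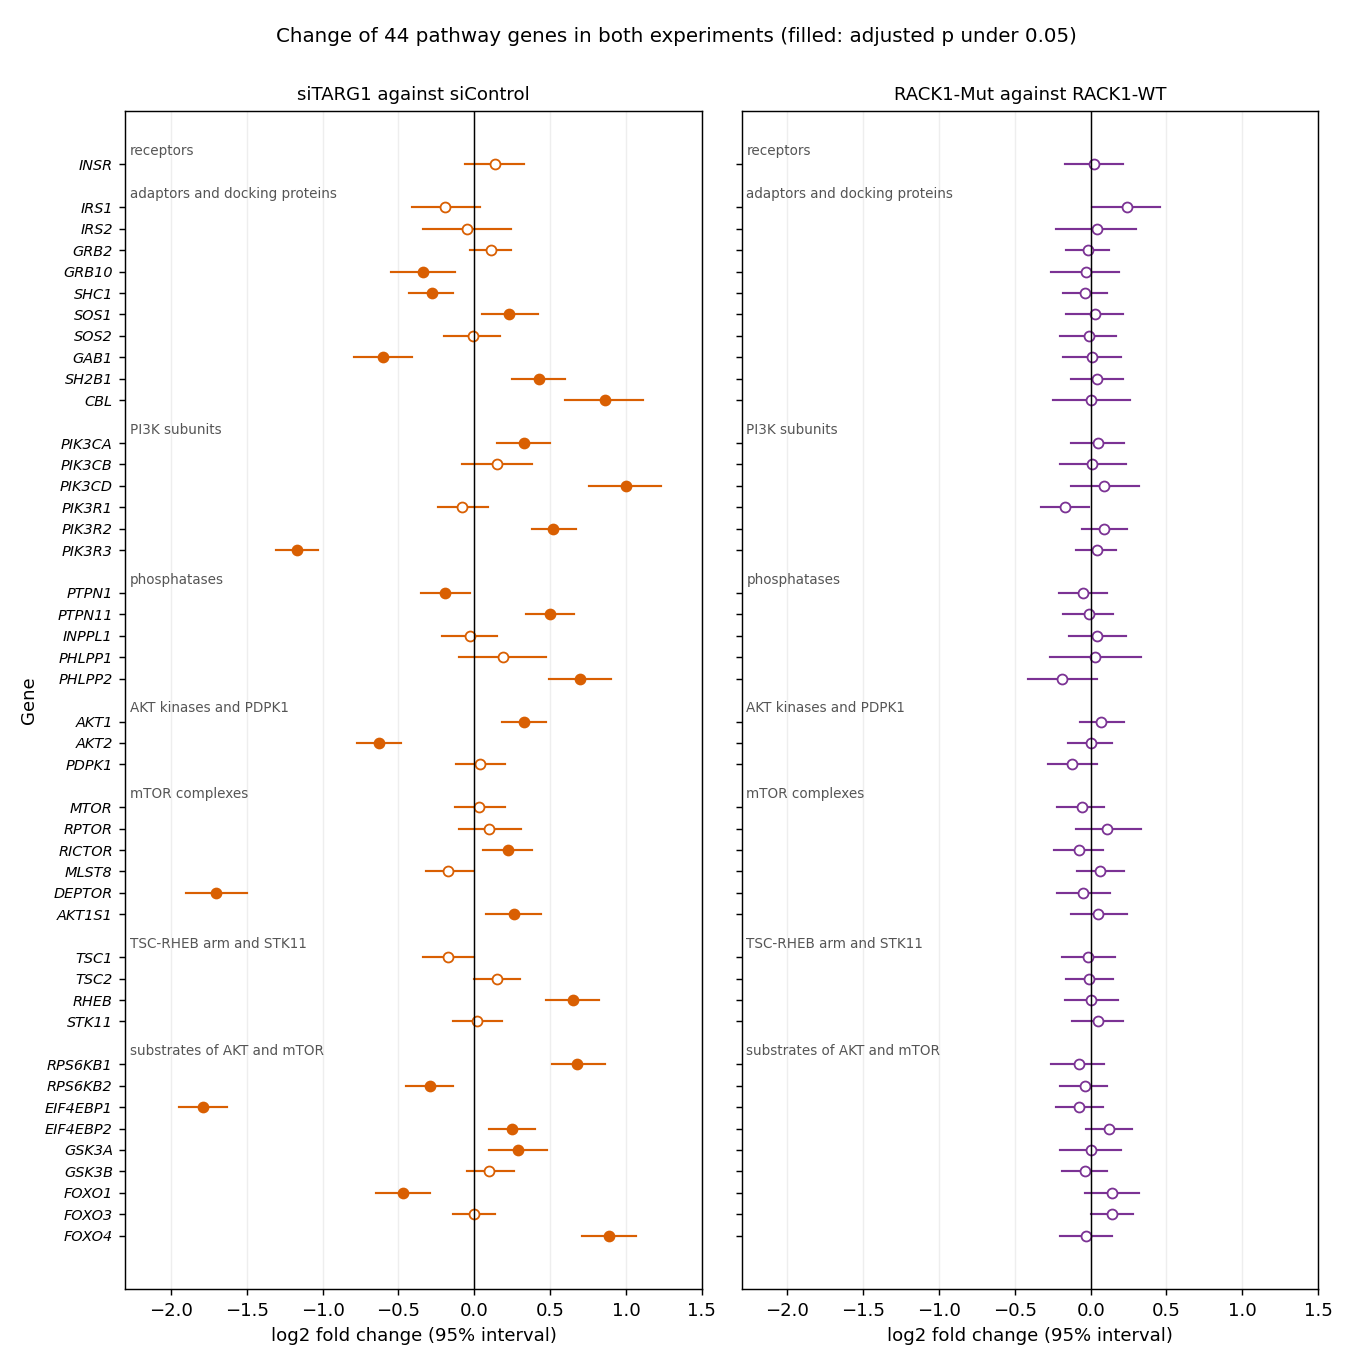
Log2 fold change of each of the 44 genes with its 95% interval, by role, for siTARG1 against siControl (left) and RACK1-Mut against RACK1-WT (right). Filled symbols passed an adjusted p of 0.05. In the left panel 26 are filled, in the right panel none.

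The siTARG1 effect minus the RACK1-Mut effect was tested in the same fit, and it passed for 17 of the 44 genes (38.6%), 10 higher and 7 lower in the siTARG1 comparison. The share over all features was 32.7%. Differences over 2-fold were called for 3 of the 44, and for 7.8% of all features. The differences were largest for EIF4EBP1 (-1.71, SE 0.10, adjusted p = 7.5e-08), DEPTOR (-1.66, SE 0.12) and PIK3R3 (-1.20, SE 0.09). FOXO4 (0.92), PIK3CD (0.90), PHLPP2 (0.88), CBL (0.85), RPS6KB1 (0.77), RHEB (0.64), PTPN11 (0.51), PIK3R2 (0.43), SH2B1 (0.39) and RICTOR (0.30) were the genes with a higher effect in siTARG1 cells. AKT2 (-0.62), GAB1 (-0.61), FOXO1 (-0.61) and IRS1 (-0.43) had a lower one. The difference for IRS1, a gene that passed in neither comparison alone, was -0.25 with an adjusted p of 0.20 without RACK1-Mut replicate 2. For PIK3R2 it was 0.12 over coding-sequence counts, with an adjusted p of 0.50. AKT1 had a difference of 0.26 (SE 0.09) and an adjusted p of 0.053, so its effects were not shown to differ by this fit. The adjusted p lay between 0.011 and 0.18 over the alternatives, and 4 of 16 called the difference.

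In the Dox-treated RACK1-WT cells, INSR, IRS2, the catalytic PI3K subunits PIK3CA, PIK3CB and PIK3CD and the regulatory PIK3R1 were at 1.67 to 3.91 times the siControl level. GRB10 and both TSC genes were lower. This comparison crosses 2 experiments and shares the siControl libraries with the TARG1 comparison. The line, the vectors, the selection, Dox, loss of endogenous RACK1 and transfection cannot be told apart in it. Of the 44 genes, 35 (79.5%) passed, 16 higher and 19 lower, where 63.6% of all features passed, 32% higher and 31.6% lower. Over 2-fold changes were seen for 5 genes, against 17.7% of all features. The median log2 fold change was -0.07, and the median size was 0.39 against 0.40 for all features.

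INSR was at 62.1 and 71.1 CPM in the RACK1-WT libraries and 63.0 and 72.0 CPM in the RACK1-Mut libraries. All 4 lay above the siControl values given earlier, and RACK1-WT was 2.56-fold higher than siControl (log2 fold change 1.36, SE 0.09, adjusted p = 1.8e-08). IRS2 (ENSG00000185950, chromosome 13 of GRCh37, 110405042 to 110438930, minus strand), a docking protein whose transcription is known to respond to FOXO factors and cAMP, was at 93.5 and 120 CPM with RACK1-WT and at 94.1 and 125 CPM with RACK1-Mut. Its replicates differed more than those of any other member in both lines, but the increase over siControl was 3.91-fold (log2 fold change 1.97, SE 0.13, adjusted p = 2e-08). IRS1 was at 25.7 and 26.0 CPM in RACK1-WT cells and did not pass (-0.14, adjusted p = 0.27). Per coding kilobase, IRS2 was at 0.549 and 0.607 times the level of IRS1 in siControl libraries and at 2.18 and 3.52 times in RACK1-WT libraries, so that the order of these paralogs differed.

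Among the PI3K subunits, 5 of 6 were higher in RACK1-WT than in siControl cells, against 32% of all features. PIK3CD was at 53.6 and 58.6 CPM, 3.10-fold above siControl (log2 fold change 1.63, SE 0.11, adjusted p = 1.9e-08). PIK3CB was higher by 1.25, PIK3R1 by 0.97 and PIK3CA by 0.74, while PIK3R3 was lower at -0.30. PIK3R2 was at 0.30 over exons but at -0.16 over coding-sequence counts, where it did not pass. Of the adaptors, GRB10 was the lowest at -1.19 (SE 0.10), with 20.6 and 19.0 CPM in RACK1-WT cells. SHC1 (-0.56), GRB2 (-0.36) and GAB1 (-0.34) were lower too, and CBL (0.64) and SOS1 (0.38) were higher. The change of CBL was 0.33 with an adjusted p of 0.052 over coding-sequence counts. SOS2 (-0.02) and SH2B1 (0.01) did not pass.

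Downstream of PI3K, genes with lower and with higher levels were mixed. AKT2 was at 587 and 575 CPM in RACK1-WT cells, lower than siControl by a log2 fold change of -0.64 (SE 0.07, adjusted p = 1.7e-06). Against the same controls AKT2 was at -0.63 in siTARG1 cells. AKT1, at 0.33 in siTARG1 cells, was at -0.22 (adjusted p = 0.012) in RACK1-WT cells. Without siControl replicate 1 AKT1 was at -0.18 with an adjusted p of 0.093, and without RACK1-WT replicate 1 at -0.20 with 0.086. PDPK1 (-0.11) did not pass. PHLPP2, at 13.0 and 11.8 CPM, was lower (-0.60, SE 0.10, adjusted p = 0.00016), where siTARG1 cells were at 0.70 against the same controls. PHLPP1 (-0.44) was lower, PTPN11 (0.39) and INPPL1 (0.22) were higher, and PTPN1 (-0.01) did not pass. INPPL1 was at 0.13 with an adjusted p of 0.29 without siControl replicate 2.

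MTOR (ENSG00000198793, chromosome 1 of GRCh37, 11166592 to 11322613, minus strand) was at 230 and 237 CPM in RACK1-WT libraries, a log2 fold change of 0.95 (SE 0.08, adjusted p = 9e-08) over siControl. DEPTOR, its inhibitor, was higher by 0.90, with 43.1 and 46.0 CPM, where siTARG1 cells were at -1.70 against the same controls. RPTOR (-0.48), AKT1S1 (-0.43) and MLST8 (-0.36) were lower, and RICTOR (0.02) did not pass. The TSC genes were both lower, TSC1 at 43.5 and 40.4 CPM with a log2 fold change of -0.65 (SE 0.08, adjusted p = 8.6e-06) and TSC2 at -0.64. STK11 was lower at -0.27, and RHEB (0.18, adjusted p = 0.077) did not pass. RHEB was called higher under 6 of 18 alternatives, with adjusted p-values between 0.0024 and 0.41 over all of them.

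Of the substrates, EIF4EBP2 was at 190 and 183 CPM in RACK1-WT libraries, a log2 fold change of 0.96 (SE 0.07, adjusted p = 4.1e-08), and of 0.41 over coding-sequence counts. EIF4EBP1 was at 161 and 172 CPM, lower at -0.45 (adjusted p = 9.4e-05). FOXO4 (0.90) and GSK3B (0.40) were higher, and RPS6KB2 (-0.36), FOXO3 (-0.24) and FOXO1 (-0.21) were lower. Against the same controls, FOXO4 was at 0.89 in siTARG1 cells. RPS6KB1 (-0.03) and GSK3A (-0.18) did not pass. FOXO1 had an adjusted p of 0.041 with edgeR and of 0.11 with DESeq2.

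**Figure D3:**
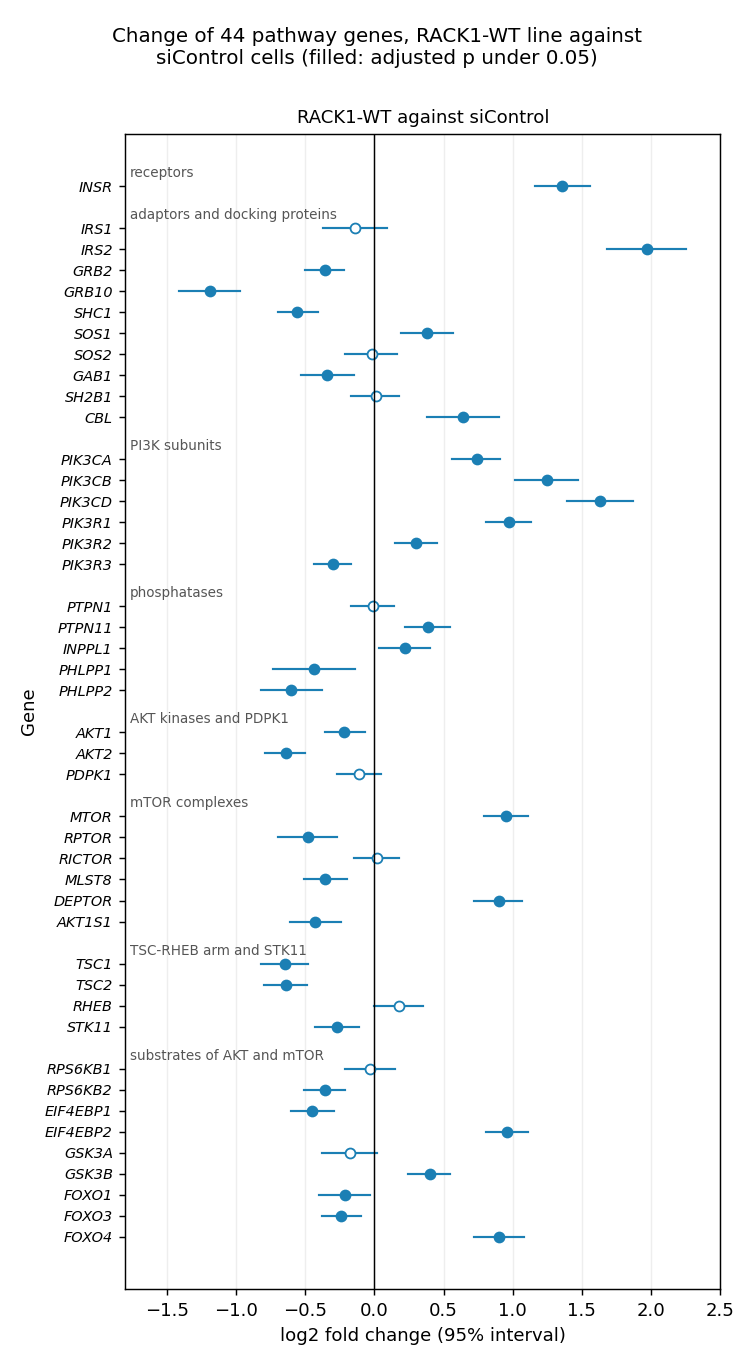
Log2 fold change with its 95% interval of the 44 genes in RACK1-WT against siControl cells, by role, filled where the adjusted p was under 0.05. IRS2 (1.97), PIK3CD (1.63), INSR (1.36) and PIK3CB (1.25) stand farthest to the right, and GRB10 (-1.19) farthest to the left.

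Levels per kilobase of coding sequence can be set side by side between paralogs. AKT2 was at 353 ± 2.77 coding CPM per kb (SD, n = 2) in siControl cells and AKT1 at 81.9 ± 2.1. In siTARG1 cells AKT2 was at 227 ± 2.48 and AKT1 at 103 ± 5.41. PIK3CA was the most abundant catalytic subunit in every group, with 17.7 ± 0.523 coding CPM per kb in siControl and 28.8 ± 1.45 in RACK1-WT cells. PIK3R3 led the regulatory subunits in siControl cells at 27.2 ± 1.64, against 11.4 ± 0.817 for PIK3R2 and 7.81 ± 0.411 for PIK3R1. In siTARG1 cells PIK3R3 and PIK3R2 were both at 13.5, with SDs of 0.728 and 0.914, and did not differ beyond their spread. Among the S6 kinases, RPS6KB1 was at 0.339 and 0.317 times the level of RPS6KB2 in siControl libraries and at 0.508 and 0.618 times in siTARG1 libraries.

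**Figure D4:**
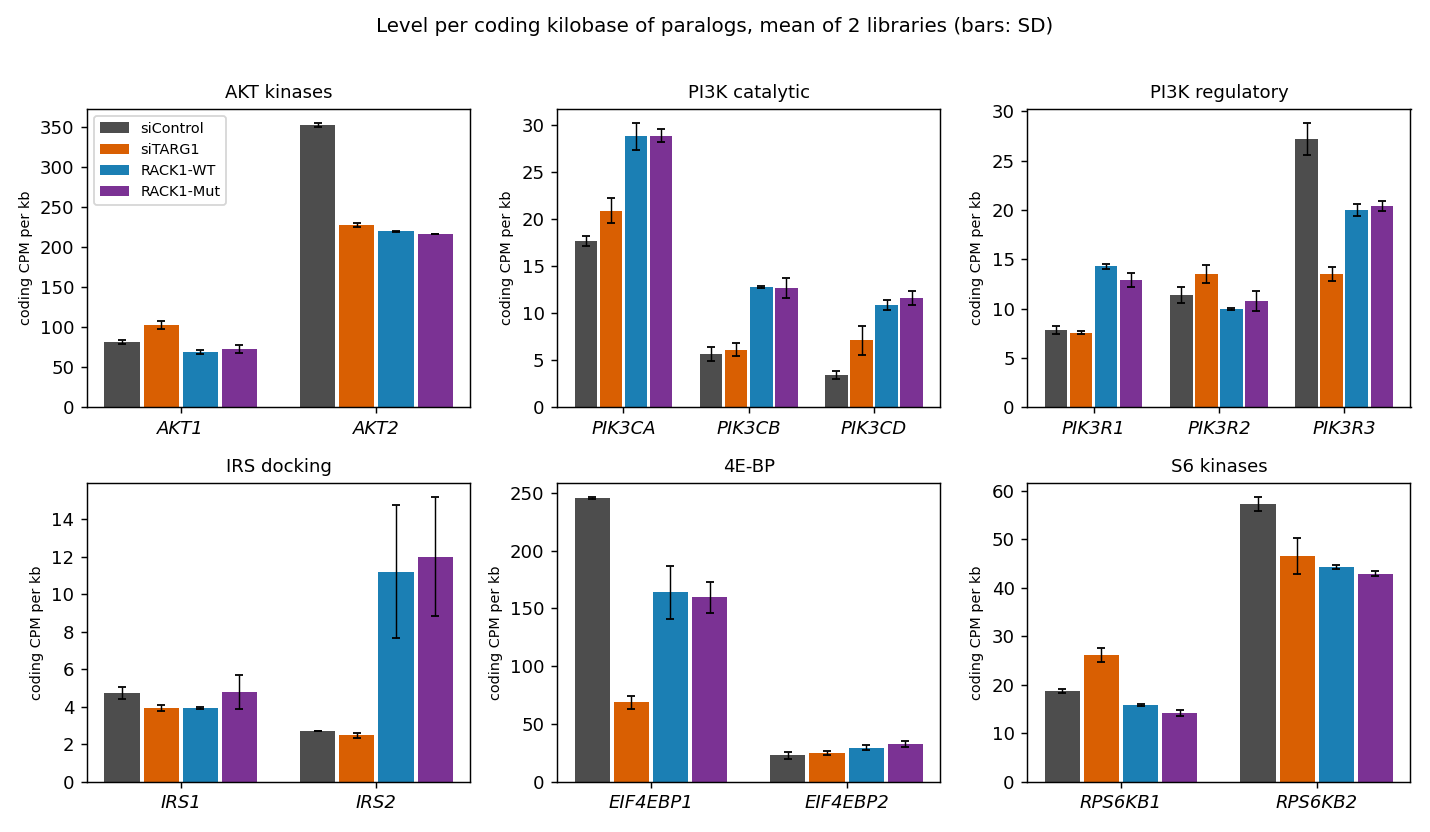
Level per kilobase of coding sequence of paralogous pathway genes, as the mean of 2 libraries per group with the SD as error bar, each panel with its own linear axis from 0. AKT2 (353 in siControl, 227 in siTARG1) and EIF4EBP1 (246 and 68.9) fall toward AKT1 and EIF4EBP2 in siTARG1 cells.

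A wider list of 62 genes around the same pathway, such as growth factors, AMPK subunits, RAG and LAMTOR proteins, sestrins and SGK kinases, gave 55 that could be tested. In siTARG1 against siControl cells 16 were higher and 12 lower (50.9%, against 46.9% of all features), with a median log2 fold change of 0.11. The 3 highest were SGK3 (1.12), a kinase related to AKT, PIK3C2B (0.99), a class II PI3K, and SESN2 (0.94), a leucine sensor that restrains mTOR complex 1. The 3 lowest were RRAGD (-1.60), a GTPase that recruits mTOR complex 1 to lysosomes, the growth factor IGF1 (-1.58) and TBC1D4 (-1.04), an AKT substrate in glucose uptake. RRAGD was at 21.8 and 21.4 CPM in siControl and 7.5 and 6.7 CPM in siTARG1 libraries. IGF1 was low throughout, at most 1.33 CPM. In RACK1-Mut against RACK1-WT cells edgeR and its adjustment called 0 of the 55. An unadjusted p under 0.05 was found for 4 of them, and for 688 of all 13932 features.

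In RACK1-WT against siControl cells 20 of these 55 genes were higher and 14 lower (61.8%, against 63.6% of all features), with a median of -0.01. SLC2A4 (2.42), the insulin-responsive glucose transporter, and SGK1 (2.04), a kinase related to AKT, were among the highest. SLC2A4 stayed at or under 1.3 CPM in siControl and RACK1-WT libraries, and SGK1 was at 2.48 and 2.65 CPM against 10.3 and 10.7 CPM. The lowest were PRR5L (-1.71), which binds mTOR complex 2, IGF1 (-1.56) and IGF2R (-0.98), the receptor that clears IGF2.

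Of 11 genes that FOXO factors are known to activate, 2 were higher and 6 lower in siTARG1 than in siControl cells (72.7% passed, against 46.9% of all features), with a median log2 fold change of -0.21. FBXO32 (-1.35), which encodes the ubiquitin ligase atrogin-1, was at 59.1 and 60.4 CPM in siControl and 22.2 and 24.7 CPM in siTARG1 libraries. BCL6 (-0.54) and GADD45A (-0.42) followed, and TNFSF10 (0.41) and CCNG2 (0.38) were higher. In RACK1-WT against siControl cells 5 were higher and 4 lower (81.8%, against 63.6% of all features), with SESN3 (1.33) highest and BCL2L11 (-1.36) lowest. In RACK1-Mut against RACK1-WT cells edgeR called 0 of the 11. An unadjusted p under 0.05 was found for 2 of them, and for 688 of all 13932 features.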

How the data were processed

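OVCAR3 RNA-seq was analysed in 8 libraries, 2 per group. The authors removed rRNA reads with Bowtie 1.1.2, aligned the rest with Tophat 2.1.1 to transcripts of GRCh37, keeping up to 64 hits per read, and used Plastid to count those 25 to 51 bases long. They deposited estimated counts, which need not be whole, and RPKM, which the authors scaled by region length and by all alignments and which was not used for tests. The deposited table's other values are region lengths and transcript names.

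Rows name transcripts. Symbols came from Gencode on GRCh37, where 94.7% of 36595 transcript names matched, and 553 of 20165 rows without a match were kept under a transcript name. Exon counts were rounded and tested with edgeR 4.0.16 (limma 3.58.1, R 4.3.3): TMM factors, filterByExpr on the 4 groups, glmQLFTest with 4 residual degrees of freedom, and Benjamini-Hochberg adjustment over 13932 features, threshold 0.05. SE is |log2 fold change| over the square root of F. The scripts were tested on simulated data. Replicates differed beyond counting error, with a chi-square per degree of freedom of 5.52 to 19.5. Tables were made with Python 3.11.15, pandas 2.3.3, numpy 2.4.6 and matplotlib 3.10.9.

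The genes and lists were chosen with earlier results of these data known. Every member past the threshold is named. Per-library values are given for AKT1, AKT2, INSR, IRS1, IRS2 and, in each role, the called gene with the largest change in siTARG1 and in RACK1-WT against siControl. Of other lists, the 3 highest and 3 lowest called genes are named, except for 1 item that is not reported here. Other per-library values were chosen after they were seen. Alternatives were DESeq2 1.42.0, RLE factors, no filter, a minimum of 10 counts per library, fits of the compared libraries alone, the replicate number as a block, coding-sequence counts, rows summed by symbol and leaving out each library. CASTOR1, INS, CBLB and PECAM1 had no row of their own and are not analysed here. The rows of RPS6KB1 and GSK3A also join an unnamed gene.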

Additional observations from a re-analysis of the deposited data

How the results depend on the processing

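Of the 26 genes called in siTARG1 against siControl, 17 were called under every alternative, and of the 35 in RACK1-WT against siControl, 27. Among called genes, the direction turned for PIK3R2 alone, in RACK1-WT against siControl, at -0.16 with coding-sequence counts (adjusted p = 0.13), a row that joins other genes; uncalled changes near 0 also turned sign. Fits of the compared libraries alone gave 13 higher and 9 lower in siTARG1 against siControl, and SOS1 (adjusted p = 0.087), PTPN1 (adjusted p = 0.096), RICTOR and AKT1S1 were not called. Leaving out each library in turn gave 12 to 15 higher and 7 to 10 lower in siTARG1 against siControl, and 15 to 17 higher and 14 to 19 lower in RACK1-WT against siControl. The difference of the effects gave 8 to 11 higher and 6 to 9 lower, and RACK1-Mut against RACK1-WT 0 throughout. A group left with 1 library was assumed to vary like the others. Without siTARG1 replicate 2, PIK3CA (0.20, adjusted p = 0.051), SOS1 (0.14, adjusted p = 0.26), RICTOR (0.14, adjusted p = 0.18), PTPN1 (-0.12, adjusted p = 0.25) and EIF4EBP2 (0.20, adjusted p = 0.052) lost their calls. Without siControl replicate 1, SOS1 (0.17), RICTOR (0.24), AKT1S1 (0.18), GSK3A (0.25), EIF4EBP2 (0.22), GRB10 (-0.18), SHC1 (-0.22) and PTPN1 (-0.17) lost theirs. RICTOR (0.22) and PTPN1 (-0.20) did without siControl replicate 2, AKT1S1 (0.22) and GSK3A (0.26) without siTARG1 replicate 1, and SOS1 and PTPN1 without any 1 RACK1 library. Against siControl, PHLPP1 and STK11 in RACK1-WT cells did so without siControl replicate 1 (-0.36 and -0.23) or RACK1-WT replicate 1 (-0.30 and -0.21), and FOXO3 without RACK1-WT replicate 1 (-0.21). FOXO1 and INPPL1 lost theirs without either RACK1-WT library, FOXO1 also without either siControl library. In the difference of the effects, SH2B1 was at 0.35 without siControl replicate 2, 0.34 without RACK1-WT replicate 2 and 0.32 without RACK1-Mut replicate 2, each uncalled, and RICTOR and IRS1 each lost the call without 6 of the 8 libraries in turn. The causes were not tested.

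The labels number replicates alike in every group but say nothing of what a number shares. Deviations of same-numbered libraries correlated at 0.55 between siControl and siTARG1 and at 0.04 between RACK1-WT and RACK1-Mut. With the replicate block, 16 higher and 9 lower were called in siTARG1 against siControl, 16 and 19 in RACK1-WT against siControl, and 10 and 7 for the difference of the effects. A replicate block within each experiment, added after seeing the data, gave 17 and 13, 16 and 21, and 13 and 11. In siTARG1 against siControl it called IRS1 (adjusted p = 0.047), MLST8 (adjusted p = 0.018), TSC1 and TSC2 as well. Calls were gained under some alternative by 5 genes in siTARG1 against siControl, 4 in RACK1-WT against siControl and 7 in the difference of the effects. Pairing siControl 1 with RACK1-WT 2, whose same-numbered libraries correlated at -0.15, gave 17 and 19. RACK1-Mut against RACK1-WT had 0 calls with each block.

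Precision was limited by having 2 libraries per group, and each of the 44 genes had at least 300 counts per library. How much of a single gene's spread was counting error was not tested.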
